A study of Mus musculus with 30 samples.

Results

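The genes described here are 10 costimulatory ligands and receptors of dendritic cells, *Cd80*, *Cd86*, *Cd40*, *Cd83*, *Icosl*, *Tnfsf4*, *Tnfsf9*, *Cd70*, *Cd48* and *Cd200*, taken by name from a table of read counts over 43629 genes. The study asked how CACNB3, a β subunit of voltage-gated calcium channels, shapes the response of dendritic cells to extracellular ATP, and sequenced RNA from mouse bone marrow-derived dendritic cells (BMDCs). There were 30 libraries from 10 cultures, 5 wild-type (WT) and 5 *Cacnb3-/-*, each culture giving 1 library in each of the sets named ctrl, 0p5h and 24h. WT cells came from C57BL/6J mice and *Cacnb3-/-* cells from C57BL/6N mice, so that genotype and substrain cannot be told apart, and the mice were 6 to 12 weeks old. All groups share marrow grown with GM-CSF and a culture time of 6 days in the labels. ATP was given as a pulse of 500 µM for 30 min. The labels conflict on which set received it at the early time: libraries named ctrl carry a treatment field of 30 min ATP and libraries named 0p5h carry vehicle, while the 24h libraries are ATP by both. Every change below is therefore stated by library name, and for 0p5h against ctrl its direction relative to ATP would be reversed if the treatment field were right. In that case 24h against 0p5h would compare ATP with vehicle, and 24h against ctrl would compare a later with an earlier time of ATP. The labels give each culture a number but do not say whether cultures came from separate animals. The p-values therefore measure the spread between these cultures. Where libraries are compared within a culture, the p-values measure how that change varies over these cultures.

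A T cell needs a second signal beside antigen, and the dendritic cell delivers it through surface ligands that engage receptors on the T cell. *Cd80* and *Cd86* are B7 ligands that share the activating receptor CD28 and the inhibitory receptor CTLA4, and *Icosl* is the B7-like ligand of ICOS. *Tnfsf4* (OX40 ligand), *Tnfsf9* (the ligand of 4-1BB, encoded by *Tnfrsf9*) and *Cd70* (the ligand of CD27) are ligands of the TNF superfamily that act after the first encounter, and *Cd40* is the receptor through which helper T cells license the dendritic cell. *Cd83* is a maturation marker that keeps MHC class II and CD86 on the surface, *Cd48* is a SLAM family ligand of CD2 and CD244, and *Cd200* signals to an inhibitory receptor on myeloid cells.

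Library depth ran from 8237393 to 32164225 assigned reads (median 19556920), and was lowest in the *Cacnb3-/-* 24h set, at 8237393 to 22535554. Values are given as reads of a gene per 1000000 reads of its library (CPM). The library size here counts reads of the genes kept by the low-count filter and is scaled by TMM over all libraries. The 8 dendritic cell markers listed for this check, *Itgax*, *Flt3*, *Zbtb46*, *H2-Ab1*, *H2-Aa*, *Cd74*, *Irf4* and *Batf3*, had reads in every library and summed to 13149 to 35664 CPM. Summed T cell markers stayed at or below 1.71 CPM, NK cell markers at or below 0.486 CPM and B cell markers at or below 5.10 CPM. Markers of granulocytes summed to 129.8 to 689 CPM and those of mast cells and basophils to 6.72 to 56.7 CPM. The targeted gene *Cacnb3* was still counted in the *Cacnb3-/-* libraries, with 1028 CPM on average in ctrl against 1260.2 CPM in WT, and counts summed over a gene do not show whether the deleted exons were read. These counts therefore do not check the genotype labels.

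All 10 members had reads in 30 of 30 libraries and entered the test in all 13 comparisons made. Positions are GRCm38. The B7 genes *Cd80* (ENSMUSG00000075122, chr16:38458933-38486933, plus strand) and *Cd86* (ENSMUSG00000022901, chr16:36603869-36666081, minus strand) lie on one chromosome with 36 genes between them. The TNF ligand genes *Tnfsf9* (ENSMUSG00000035678, chr17:57105385-57107757, plus strand) and *Cd70* (ENSMUSG00000019489, chr17:57145997-57149777, minus strand) are direct neighbours, 38.2 kb apart with no gene between them, and *Tnfsf14* follows 39.7 kb beyond *Cd70*. *Icosl* (ENSMUSG00000000732) is at chr10:78069360-78079525, plus strand, *Tnfsf4* (ENSMUSG00000026700) at chr1:161395409-161418410, plus strand, and *Cd48* (ENSMUSG00000015355) at chr1:171682009-171705258, plus strand. *Cd40* (ENSMUSG00000017652) is at chr2:165055627-165072948, plus strand, *Cd83* (ENSMUSG00000015396) at chr13:43785107-43803130, plus strand, and *Cd200* (ENSMUSG00000022661) at chr16:45382135-45409053, minus strand. The span of *Tnfsf9* overlaps the antisense gene *Gm11110*, whose exons share 0 bases with those of *Tnfsf9*. Over the 30 libraries *Gm11110* had 11464 reads and *Tnfsf9* 11955, with 0.545 to 2.48 *Gm11110* reads per *Tnfsf9* read in single libraries. Whether antisense reads were counted for *Tnfsf9* was not tested. Counting was per gene over exons, and the file header gives no strand option.

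RefSeq promoter sequences (build GRCm38.p6) were at hand for 4 of the 10 members, *Cd80*, *Cd200*, *Icosl* and *Cd48*. The 250 bases before the annotated start are shown for *Cd80*, *Cd200* and *Icosl* because these are the 3 among them whose level differed between 0p5h and ctrl in at least 1 genotype. They are written 5′ to 3′ along the gene's own strand, with capitals marking matches, on either strand, to the core of a cyclic AMP response element (TGACGT), to an AP-1 site (TGANTCA), to a TATA box (TATAAA), to a CCAAT box or to an NF-kB site. No overlap between matches occurred in these windows.
*Cd80*, chr16:38458683-38458932, plus strand: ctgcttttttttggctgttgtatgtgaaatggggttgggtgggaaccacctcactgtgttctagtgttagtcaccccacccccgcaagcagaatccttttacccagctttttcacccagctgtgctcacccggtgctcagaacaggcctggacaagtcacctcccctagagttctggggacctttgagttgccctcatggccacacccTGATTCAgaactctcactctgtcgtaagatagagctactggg
*Cd200*, chr16:45409054-45409303, minus strand: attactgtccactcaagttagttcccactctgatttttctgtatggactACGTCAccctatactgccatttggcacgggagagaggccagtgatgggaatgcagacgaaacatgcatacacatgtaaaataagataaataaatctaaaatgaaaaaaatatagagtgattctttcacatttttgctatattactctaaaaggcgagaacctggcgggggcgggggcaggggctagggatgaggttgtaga
*Icosl*, chr10:78069118-78069367, plus strand: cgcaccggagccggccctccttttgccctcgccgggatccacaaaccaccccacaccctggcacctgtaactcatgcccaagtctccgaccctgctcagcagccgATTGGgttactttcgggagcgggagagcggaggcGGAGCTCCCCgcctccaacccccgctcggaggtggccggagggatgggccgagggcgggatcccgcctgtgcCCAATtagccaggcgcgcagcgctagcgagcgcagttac
*Cd80* held 1 AP-1 match that began 42 bases before the start, a motif present in 6.75% of 32851 promoters of the same length. *Cd200* held 1 TGACGT match, 201 bases before the start, against 6.47% of promoters. *Icosl* held CCAAT matches 145 and 39 bases before the start (33.8% of promoters hold at least 1) and an NF-kB match 111 bases before it (7.25%). No TATAAA, which 12.4% of promoters hold, was in the windows of these genes, and the *Cd48* window (chr1:171681742-171681991) held none of the motifs. A match is a string of letters and was not tested as a binding site.

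The members were ordered by their level per length. *Cd83* was the most abundant, with a mean of 849.5 CPM per kb of exon over the 30 libraries, and stood above the next member in 30 of 30 libraries. *Tnfsf4* followed at 118 CPM per kb and was above *Cd86* in 29 of 30. *Cd86* (66.8 CPM per kb), *Cd48* (62.8), *Cd40* (60.4) and *Cd80* (55.3) formed a group whose neighbours exchanged places, since *Cd86* exceeded *Cd48* in 17 libraries, *Cd48* exceeded *Cd40* in 19 and *Cd40* exceeded *Cd80* in 14. All 30 libraries had more *Cd80* than *Cd200* (35 CPM per kb). *Cd200* was above *Icosl* (19.5 CPM per kb) in 21 libraries, *Icosl* above *Tnfsf9* (16.7) in 17, and *Tnfsf9* above *Cd70* (8.72) in 27.

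**Figure D1:**
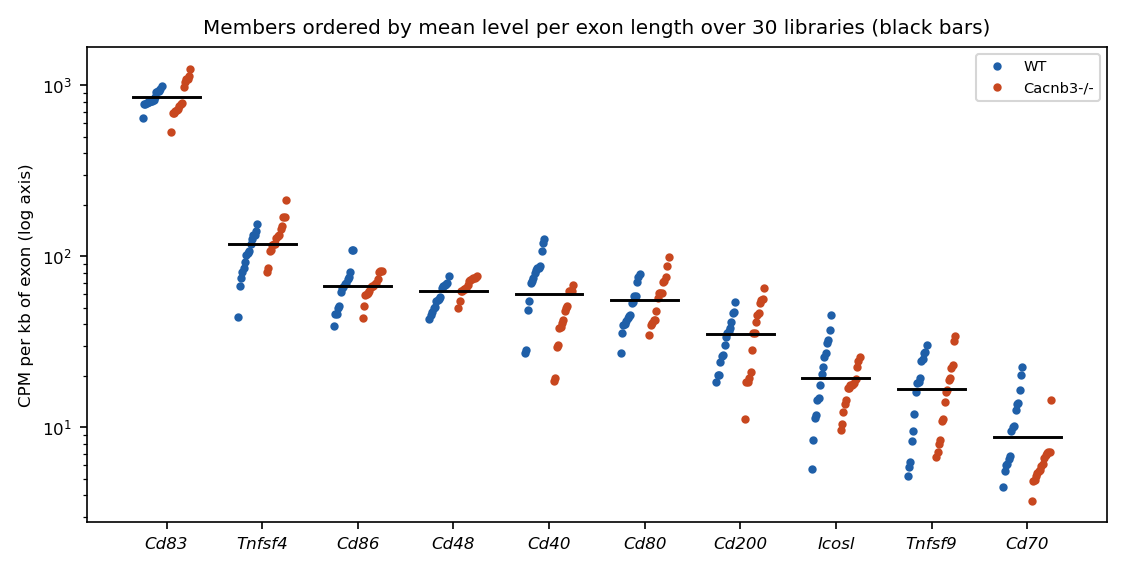
CPM per kb of exon on a log axis for each of the 10 members in the 30 libraries, with members ordered by their mean. *Cd83* stands above all others in every library, while *Cd86*, *Cd48*, *Cd40* and *Cd80* overlap.

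Replicate cultures of 1 group differed widely for several members. Differences between sets were therefore tested in 2 ways. The first, the main test, was edgeR's quasi-likelihood test without the culture number, where a gene is called if its p, adjusted by Benjamini-Hochberg over all genes tested, is under 0.05 and its change is 2-fold or more. It called 0 of the 10 members in each of the 13 comparisons, and DESeq2 at the same thresholds also called 0. For scale, DESeq2 called 0.32%, 0.198% and 0.994% of genes in WT for 0p5h against ctrl, 24h against ctrl and 24h against 0p5h, and 0.403%, 0.333% and 1.45% in *Cacnb3-/-*. The second fit added the culture number as a block, which compares the libraries of 1 culture with each other, and is used below for 5 of the 6 set comparisons, in which libraries with the same number deviated together in every culture. For *Cacnb3-/-* 24h against ctrl, where 1 of 5 cultures did not, the values of both fits are given. In what follows "rose" and "fell" mean an adjusted p under 0.05 in that blocked edgeR fit, with no fold minimum, a reading chosen after the data were seen. The changes were below 2-fold unless stated.

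Between ctrl and 0p5h, *Cd80*, *Tnfsf4*, *Tnfsf9* and *Cd200* each had the 0p5h library above the ctrl library in 10 of 10 cultures. Over all genes with enough reads, 3.8% were higher in 10 of 10. In WT, *Cd80*, *Tnfsf4*, *Tnfsf9* and *Cd200* rose and *Icosl* fell, so that 5 of 10 members passed against 5.96% of the 13085 genes tested (780 genes, 431 higher and 349 lower). In *Cacnb3-/-*, *Cd80*, *Tnfsf9* and *Cd200* rose, 3 of 10 against 2.35% of 12750 genes. Without the block, 0 members in WT and 1 in *Cacnb3-/-* had an unadjusted p under 0.05, against 4.54% and 3.99% of genes, and the calls at 2-fold covered 0.176% and 0.29% of genes. In bulk RNA a lower level from fewer cells of a type and from less RNA per cell cannot be told apart.

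**Figure D2:**
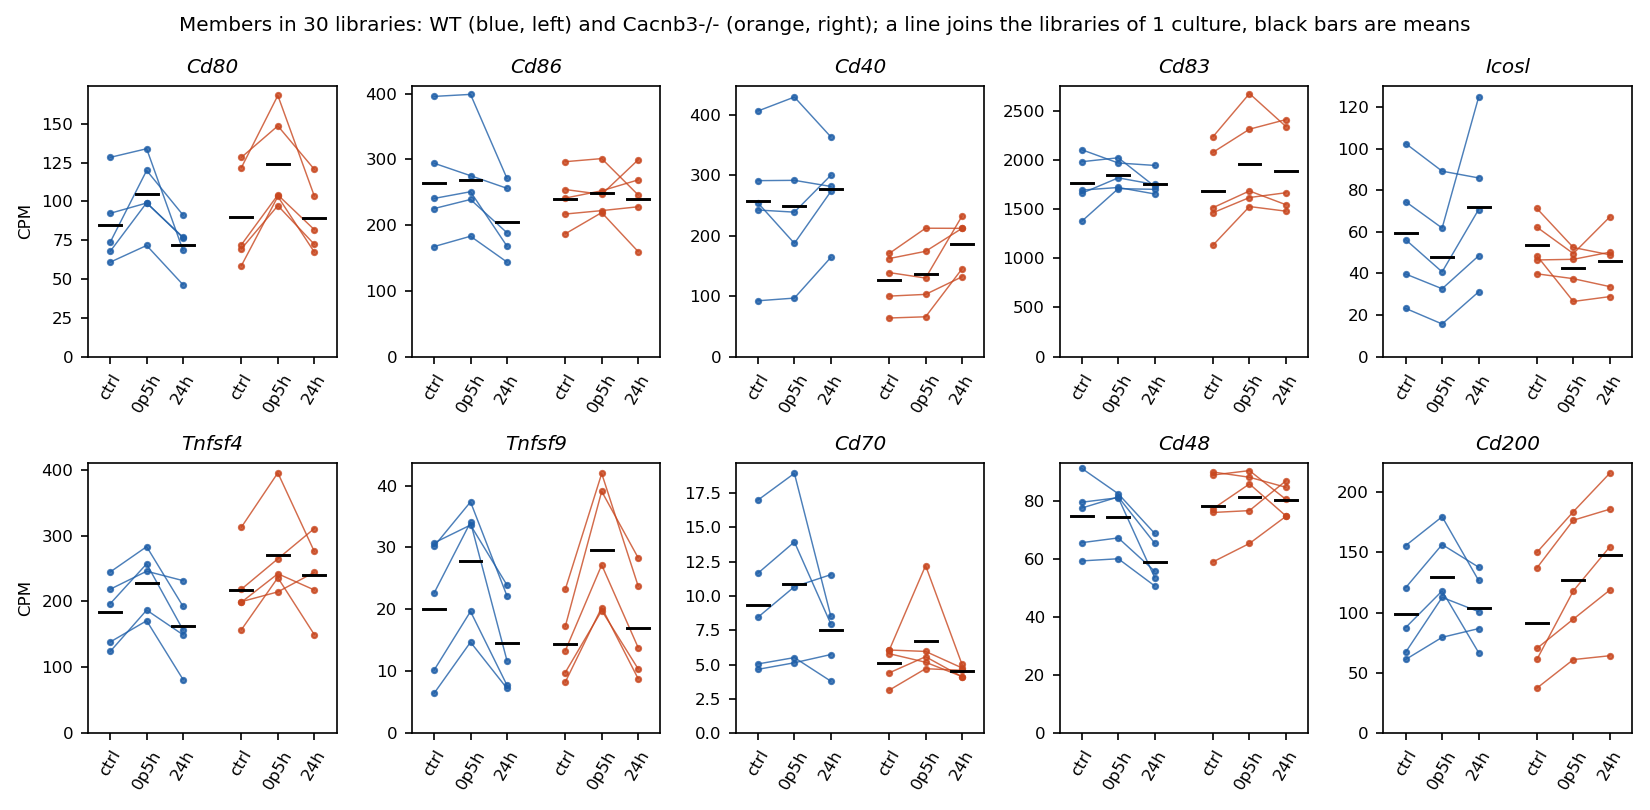
CPM of each member in ctrl, 0p5h and 24h, one panel per member, with lines joining the 3 libraries of 1 culture and colours for the genotypes. *Cd80*, *Tnfsf4*, *Tnfsf9* and *Cd200* are higher at 0p5h than at ctrl in every culture, and the lines of a culture mostly keep their rank.

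*Tnfsf9*, the ligand of 4-1BB, changed most. In the order WT p974s846, p974s850, p974s855, p974s856 and p974s864, its ctrl libraries held 30.2, 10.2, 30.7, 22.6 and 6.42 CPM and its 0p5h libraries 37.4, 19.7, 33.6, 34.1 and 14.7 CPM. In the order *Cacnb3-/-* p974s843, p974s851, p974s852, p974s853 and p974s865, ctrl held 17.2, 9.79, 13.3, 23.2 and 8.24 CPM and 0p5h 39.1, 19.8, 27.2, 42.0 and 20.3 CPM. The sets overlapped across cultures in both genotypes, while within each culture the 0p5h library was the higher. The blocked edgeR log2 fold change was 0.57, SE 0.12, adjusted p = 0.0203, in WT, and 1.06, SE 0.09, adjusted p = 0.000171, in *Cacnb3-/-*, where the change also exceeded 2-fold, a call that 0.643% of genes reached in this fit and 0.575% in DESeq2 with the block, where *Tnfsf9* was called as well. In WT the adjusted p was 0.0768 without culture p974s850 and 0.0959 without p974s856 in the same edgeR fit, and in *Cacnb3-/-* leaving out any 1 culture kept the call, with log2 fold changes of 1.02 to 1.13. Without the block the *Cacnb3-/-* edgeR log2 fold change was 1.03, SE 0.31, adjusted p = 0.563.

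*Tnfsf4*, the OX40 ligand, is a second TNF family ligand that was higher throughout. Its WT ctrl libraries, in the same culture order, held 218, 124, 245, 138 and 196 CPM and the 0p5h libraries 246, 187, 283, 171 and 257 CPM. In *Cacnb3-/-* it went from 199.6, 199, 313, 219 and 157 CPM to 214, 242, 395, 265 and 236 CPM. The sets overlapped, and the paired differences were of one sign. It rose in WT (0.34, SE 0.06, adjusted p = 0.00512, edgeR with the block) and passed without any 1 culture, whereas in *Cacnb3-/-* it missed the threshold (0.31, SE 0.08, adjusted p = 0.0740, the same fit) and DESeq2 with the block gave an adjusted p of 0.0166.

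*Cd70*, the CD27 ligand beside *Tnfsf9* on chromosome 17, was the scarcest member. It held 11.7, 5.04, 17, 8.45 and 4.65 CPM in WT ctrl and 13.9, 5.51, 19, 10.7 and 5.13 CPM in WT 0p5h, higher in each WT culture by less than the spread between cultures. In *Cacnb3-/-* it held 5.79, 4.39, 6.06, 6.03 and 3.13 CPM in ctrl and 5.17, 5.57, 5.96, 12.2 and 4.70 CPM in 0p5h, with 1 library, culture p974s853, well above the other 4. Neither genotype passed, with blocked edgeR log2 fold changes of 0.22, SE 0.07, adjusted p = 0.0874, and 0.36, SE 0.17, adjusted p = 0.370.

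Of the B7 genes, *Cd80* rose in both genotypes. WT ctrl held 92.3, 67.8, 128, 60.8 and 73.7 CPM and WT 0p5h 98.9, 99.1, 134, 71.6 and 119.9 CPM. *Cacnb3-/-* ctrl held 72.1, 69.5, 122, 128 and 58.6 CPM and 0p5h 104, 97.3, 168, 149 and 103 CPM. The increases per culture were 0.10, 0.55, 0.06, 0.24 and 0.70 on the log2 scale in WT and 0.53, 0.49, 0.47, 0.21 and 0.82 in *Cacnb3-/-*, with no culture lower. The blocked edgeR log2 fold changes were 0.34, SE 0.08, adjusted p = 0.0410, in WT, and 0.49, SE 0.08, adjusted p = 0.0150, in *Cacnb3-/-*. The call was lost in WT without p974s850, p974s856 or p974s864 (edgeR adjusted p of 0.135, 0.126 and 0.0776) and in *Cacnb3-/-* without p974s851, p974s852 or p974s865 (0.0785, 0.0724 and 0.0905).

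*Cd86*, the other CD28 ligand, did not pass over the same interval. It held 294, 225, 396, 241 and 167 CPM in WT ctrl and 275, 239, 399, 251 and 183 CPM in WT 0p5h. In *Cacnb3-/-* the values were 217, 241, 297, 254 and 187 CPM and 222, 252, 301, 247 and 219 CPM. Each culture moved by less than the range between cultures, and the blocked edgeR log2 fold changes were 0.05, SE 0.04, adjusted p = 0.568, and 0.05, SE 0.06, adjusted p = 0.777. Whether *Cd80* and *Cd86* differed in their change was not tested.

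*Icosl* went the other way. It held 39.7, 103, 23.2, 56.3 and 74.6 CPM in WT ctrl and 32.7, 89.3, 15.7, 40.8 and 61.9 CPM in WT 0p5h, lower in all 5 cultures. In *Cacnb3-/-* it held 48.6, 71.3, 46.5, 39.8 and 62.3 CPM and 26.5, 52.5, 46.8, 37.5 and 49.6 CPM, lower in 4 of 5. It fell in WT (-0.34, SE 0.06, adjusted p = 0.00537, edgeR with the block, and past the threshold without any 1 culture) and missed the threshold in *Cacnb3-/-* (-0.36, SE 0.12, adjusted p = 0.172, the same fit).

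*Cd200*, the ligand of an inhibitory receptor, rose in both genotypes. WT ctrl held 121, 61.1, 156, 87.6 and 67.2 CPM and WT 0p5h 156, 79.5, 179.6, 118 and 113 CPM. *Cacnb3-/-* ctrl held 61.1, 70.3, 137, 149.9 and 37.3 CPM and 0p5h 118, 94.6, 177, 184 and 61.0 CPM. The gain was present in each culture although the highest *Cacnb3-/-* ctrl culture held 4.02 times the CPM of the lowest. Blocked edgeR log2 fold changes were 0.43, SE 0.06, adjusted p = 0.00285, in WT, kept without any 1 culture, and 0.53, SE 0.10, adjusted p = 0.0216, in *Cacnb3-/-*, lost without p974s851, p974s852 or p974s865 (adjusted p of 0.0810, 0.0603 and 0.156).

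*Cd40*, *Cd83* and *Cd48* did not pass between ctrl and 0p5h in either genotype. *Cd83* ranged from 1379 to 2108 CPM in WT ctrl and from 1711 to 2026 CPM in WT 0p5h, and was higher at 0p5h in 9 of 10 cultures (blocked edgeR log2 fold changes 0.09, SE 0.06, adjusted p = 0.421, in WT, and 0.22, SE 0.07, adjusted p = 0.202, in *Cacnb3-/-*). *Cd48* moved least, at 0.01 in WT and 0.05 in *Cacnb3-/-*. *Cd40* was higher in 7 cultures and lower in 3, at -0.05 and 0.07.

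One macrophage marker moved over the same interval. The 7 macrophage markers summed to a median of 1262 CPM in WT ctrl (1122 to 1935) and 1768 CPM in WT 0p5h (1344 to 3009), and to 1349 CPM (591 to 2445) and 1983 CPM (658 to 3704) in *Cacnb3-/-*, with no marker at 0. Of the list, *Cd14* alone passed the blocked edgeR test, at 1.20, adjusted p = 1.01e-05, in WT and 1.41, adjusted p = 1.38e-05, in *Cacnb3-/-*. Its part in the members' changes was not tested.

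**Figure D3:**
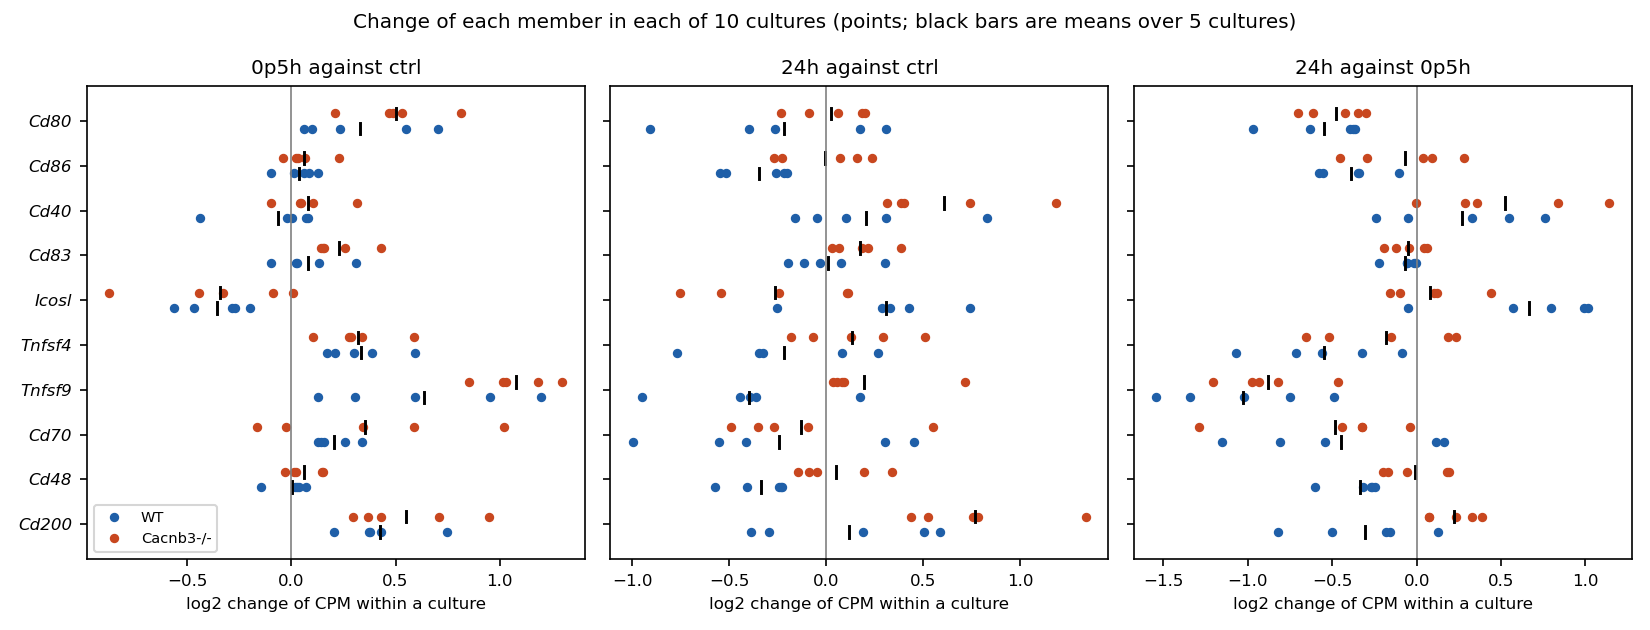
Log2 change in CPM of each member in each culture for 0p5h against ctrl, 24h against ctrl and 24h against 0p5h, 1 point per culture, coloured by genotype. *Tnfsf9* and *Cd80* lie above 0 for 0p5h against ctrl and below 0 for 24h against 0p5h in all 10 cultures.

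At 24h *Tnfsf9* and *Cd80* were lower than at 0p5h in 10 of 10 cultures, as were 5.98% of genes. Both comparisons use the same 0p5h libraries, so that a high 0p5h value enters each with opposite sign. In WT, *Tnfsf9*, *Cd80*, *Tnfsf4*, *Cd86* and *Cd48* fell and *Icosl* rose, 6 of 10 against 11.3% of 12830 genes. In *Cacnb3-/-*, *Tnfsf9* and *Cd80* fell and *Cd40* rose, 3 of 10 against 28.6% of 12730 genes. The *Cacnb3-/-* count was thus near that of genes in general. Without the block 3 and 2 members had an unadjusted p under 0.05, against 11.2% and 17.5% of genes, and the main calls at 2-fold covered 0.639% and 0.66%. Cell markers moved over the same interval. The macrophage marker *Cd14* fell in WT (-2.71, adjusted p = 0.000842, edgeR with the block, and -2.48, adjusted p = 0.0396, in the main test) and in *Cacnb3-/-* (-2.35, adjusted p = 1.52e-05, edgeR with the block). Of the 8 dendritic cell markers 1 rose and 2 fell in WT and 2 rose and 5 fell in *Cacnb3-/-* by the blocked edgeR fit. Their part in the members' changes was not tested.

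At 24h *Tnfsf9* was at 22.2, 7.74, 23.9, 11.7 and 7.23 CPM in the WT 24h libraries and at 28.3, 10.4, 13.8, 23.8 and 8.79 CPM in the *Cacnb3-/-* 24h libraries. Each of these lay below the 0p5h library of its own culture. The blocked edgeR log2 fold changes against 0p5h were -1.0, SE 0.14, adjusted p = 0.00337, in WT and -0.86, SE 0.12, adjusted p = 0.00069, in *Cacnb3-/-*, kept without any 1 culture. In WT this lay at the 2-fold line: DESeq2 with the block gave -1.02 (adjusted p = 3.81e-09), past it, and so did the blocked edgeR fit without p974s846 (-1.08) or p974s855 (-1.15). These fits called 1.81% (DESeq2) and, with all cultures, 1.78% (edgeR) of genes at 2-fold.

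*Cd80* was at 76.9, 76.5, 68.4, 46.2 and 91.2 CPM in WT 24h and 81.8, 72.4, 104, 121 and 67.4 CPM in *Cacnb3-/-* 24h. The fall from 0p5h was -0.54, SE 0.10, adjusted p = 0.00949, in WT and -0.47, SE 0.09, adjusted p = 0.00473, in *Cacnb3-/-* (log2, edgeR with the block), kept without any 1 culture. With the GC trend removed the *Cacnb3-/-* value was -0.71. *Cd86* was at 256, 188, 271, 168 and 144 CPM in WT 24h and fell there (-0.38, SE 0.08, adjusted p = 0.0197, the same edgeR fit), but not past the threshold without p974s855 (0.0862) or p974s864 (0.0622). In *Cacnb3-/-*, at 228, 269, 246, 299 and 159.7 CPM, it was lower in 2 cultures and higher in 3. *Icosl* rose in WT, to 48.5, 86.0, 31.1, 70.8 and 125 CPM (0.66, SE 0.14, adjusted p = 0.0194), and missed the threshold without p974s846, p974s855 or p974s864 (edgeR adjusted p of 0.0638, 0.0789 and 0.0768). Its *Cacnb3-/-* 24h libraries held 28.9, 49.0, 50.3, 33.7 and 67.2 CPM, on both sides of their 0p5h values (0.10, SE 0.10, adjusted p = 0.493, edgeR with the block).

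*Tnfsf4* reached 232, 149, 192, 81.2 and 157 CPM in WT 24h and fell from 0p5h (-0.54, SE 0.13, adjusted p = 0.0246, edgeR with the block), a call lost without p974s855 (0.0835) or p974s864 (0.0902). In *Cacnb3-/-* it held 244, 217, 276, 311 and 149.6 CPM, higher than 0p5h in 2 cultures and lower in 3. *Cd48*, the SLAM family ligand, was at 55.8, 65.5, 53.6, 50.8 and 68.9 CPM in WT 24h, below 67.3, 81.5, 81.2, 60.1 and 82.5 CPM at 0p5h in each culture. It fell (-0.34, SE 0.08, adjusted p = 0.0241, the same fit), but not past the threshold without p974s846, p974s850, p974s855 or p974s864 (edgeR adjusted p of 0.0759, 0.0551, 0.0951 and 0.0613) or with the GC trend removed (0.0700). *Cd40*, the receptor for helper signals, rose in *Cacnb3-/-*, from 103, 130.0, 174, 213 and 65.9 CPM to 132, 233, 212, 212 and 145 CPM (0.54, SE 0.14, adjusted p = 0.0189, the same fit), lost without p974s851 (0.0975) where the gain was largest in CPM. In WT it went from 292, 187, 429.8, 239 and 96.8 CPM to 282, 273, 364, 300.2 and 164 CPM, higher in 3 cultures and lower in 2.

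*Cd83*, *Cd70* and *Cd200* did not pass between 0p5h and 24h in either genotype. *Cd83* ranged from 1657 to 1948 CPM in WT 24h and from 1482 to 2415 CPM in *Cacnb3-/-* 24h, where 0p5h had run from 1529 to 2680.0 CPM. *Cd70* was lower than at 0p5h in 8 of 10 cultures, with changes of -0.47 in WT and -0.48 in *Cacnb3-/-* on the log2 scale of the blocked edgeR fit. *Cd200* was at 138, 86.7, 127, 66.9 and 101 CPM in WT 24h, lower than 0p5h in 4 cultures and higher in 1, and in *Cacnb3-/-* it was higher in all 5 (0.23, SE 0.09, adjusted p = 0.0703, edgeR with the block).

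Against ctrl, the 24h set had few differences. In WT, *Cd48* fell (-0.33, SE 0.08, adjusted p = 0.0464, edgeR with the block), 1 of 10 members against 6.05% of 13176 genes, from 65.7, 77.6, 79.6, 59.4 and 91.3 CPM in ctrl, a call lost without p974s846, p974s850, p974s855 or p974s864 (adjusted p from 0.0732 to 0.185). Without the block 1 member had an unadjusted edgeR p under 0.05, against 8.39% of genes, and the main test called 0.0152% of genes at 2-fold. *Cd86* lay beside the threshold at -0.34, SE 0.09, adjusted p = 0.0542, in the same edgeR fit. In *Cacnb3-/-*, the test without the block gave 0 of 10 members an unadjusted p under 0.05 (DESeq2, 1), against 10.8% of 12452 genes. *Cd200* was at 155, 119, 186, 216 and 64.2 CPM in these 24h libraries and *Cd40* at the values given above, both higher than ctrl in 5 of 5 cultures. *Cd83* and *Tnfsf9* were also higher in 5 of 5, a pattern held by 13.5% of genes. The edgeR log2 fold changes of *Cd200* and *Cd40* without the block were 0.69, SE 0.40, adjusted p = 0.450, and 0.55, SE 0.26, adjusted p = 0.444. With the block they were 0.76, SE 0.13, adjusted p = 0.0131, and 0.60, SE 0.13, adjusted p = 0.0251, in edgeR, so that 2 of 10 members rose in that fit, against 8.54% of genes. Both calls were lost without p974s851 (adjusted p = 0.0751 for *Cd200* and 0.113 for *Cd40* in edgeR) or p974s853 (0.0586 and 0.0746), and that of *Cd40* also without p974s865 (0.0515). The 24h libraries also differed in cell markers, as the macrophage markers summed to medians of 815 CPM in WT (599 to 1417) and 921 CPM (518 to 1235) in *Cacnb3-/-*, and its part was not tested.

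Genotypes were compared within each set and over the 3 libraries of a culture added together. None of the 10 members was called, where edgeR also called 0 of all genes, and DESeq2 called 1.02%, 0.588%, 4.74% and 1.74% of genes in ctrl, 0p5h, 24h and the summed libraries. At an unadjusted edgeR p under 0.05 there were 2, 1, 4 and 2 members, against 16.6%, 16.4%, 38.4% and 23.3% of genes. The members' counts were thus near those of genes in general. The summed dendritic cell markers moved as well, with medians of 25618, 29549 and 25329 CPM in WT ctrl, 0p5h and 24h and of 20638, 25058 and 16270 CPM in *Cacnb3-/-*. Most of each sum came from *Cd74*, *H2-Aa* and *H2-Ab1*, with means of 14371, 8380 and 4453 CPM in WT ctrl. These, *Itgax* and *Irf4* had lower *Cacnb3-/-* means in every set. *Zbtb46* had higher ones in every set, and the direction for *Flt3* and *Batf3* varied by set. The part of these markers was not tested. The 14 mature dendritic cell genes described below, which include the targeted gene *Cacnb3*, had median log2 differences of -0.33, -0.33 and -0.69 in ctrl, 0p5h and 24h (0.03, 0.02 and 0.01 over all genes), with none past an adjusted p of 0.05 in edgeR. No gene of the other lists passed in these sets either.

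*Cd40* was the member furthest apart in ctrl, 0p5h and the summed libraries. At 24h *Cd70*, *Icosl* (-0.64, SE 0.33, adjusted p = 0.173, edgeR log2 fold change) and *Tnfsf4* (0.58, SE 0.26, adjusted p = 0.124) were further apart. In ctrl *Cd40* held 257 ± 113 CPM (SD, n = 5) in WT and 127 ± 44.8 CPM (SD, n = 5) in *Cacnb3-/-*, and the *Cacnb3-/-* cultures, at 100.1, 139, 162, 171 and 63.8 CPM, overlapped the WT cultures, at 291, 254, 407, 243 and 92.4 CPM, through p974s864 alone. The edgeR log2 fold change was -0.99, SE 0.35, adjusted p = 0.251, in ctrl, -0.84, SE 0.38, adjusted p = 0.298, in 0p5h, -0.55, SE 0.22, adjusted p = 0.0887, in 24h and -0.79, SE 0.30, adjusted p = 0.156, over summed libraries. Without WT culture p974s864, the lowest for *Cd40* in each set, ctrl reached -1.21 with an edgeR adjusted p of 0.0403 and was called, and 24h and the summed libraries had adjusted p-values of 0.0387 and 0.0437 below 2-fold. With all cultures edgeR called 0 of 13022 genes in ctrl. The share of all genes passing without p974s864 is not given here, so this call is not set against genes in general. Within the sequencing lanes named in the column headers, with 1 to 3 libraries of a genotype in each, the log2 ratio of means in ctrl was -0.61, -1.10 and -1.59 in lanes 1, 2 and 3, and at 24h it was 0.09, -1.0 and -0.97. Removing the trend of fold change with GC content left the 3 sets at -0.99, -0.84 and -0.56.

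*Cd70* was also lower in *Cacnb3-/-* on average. Its 24h libraries held 7.96, 3.79, 8.52, 11.6 and 5.73 CPM in WT and 4.12, 4.11, 4.75, 5.01 and 4.58 CPM in *Cacnb3-/-*, overlapping. The edgeR log2 fold change was -0.86, SE 0.35, adjusted p = 0.274, in ctrl, -0.67, SE 0.38, adjusted p = 0.388, in 0p5h and -0.72, SE 0.26, adjusted p = 0.0752, in 24h, where DESeq2 gave an adjusted p of 0.0395 and removal of the GC trend left -0.25. Within lanes 1, 2 and 3 the log2 ratio of means at 24h was -0.21, -1.09 and -0.88.

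*Cd48* was the member whose genotypes did not overlap. In 24h the WT libraries held 55.8, 65.5, 53.6, 50.8 and 68.9 CPM and the *Cacnb3-/-* libraries 74.8, 84.8, 80.6, 87.0 and 74.9 CPM, every *Cacnb3-/-* library above every WT library. Of all genes, 6.15% did not overlap in that set, 2.01% in 0p5h and 1.91% in ctrl, and no other member did so in any set. The edgeR log2 fold change at 24h was 0.46, SE 0.12, adjusted p = 0.0515. The adjusted p was 0.00921 in DESeq2, which passed 2 members (*Cd48* and *Cd70*) at this threshold without a fold minimum, against 26.4% of genes, and 0.0135 with all 30 libraries in one edgeR fit. Within lanes 1, 2 and 3 the log2 ratio of means was 0.34, 0.49 and 0.59. With the GC trend removed the log2 difference was 0.08. The same removal took *Tnfsf4* at 24h from 0.58 to 0.20, *Cd200* from 0.52 to 0.21, *Cd80* from 0.32 to -0.05 and *Cd86* from 0.24 to -0.17. The longest transcripts of these 5 genes had GC contents of 42.5% to 44.1%. Of the other members, *Cd70* (57.2%), *Icosl* (52.4%) and *Cd40* (48.8%) were lower in *Cacnb3-/-* at 24h. *Tnfsf9* (52.8%) and *Cd83* (51.6%) were higher, with edgeR log2 fold changes of 0.22 and 0.12. The part of GC content in the genotype differences was not tested.

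Leaving out 1 culture moved further 24h results past an edgeR adjusted p of 0.05, all below 2-fold. Without *Cacnb3-/-* p974s865 these were *Tnfsf4* (0.72, adjusted p = 0.0422), *Cd200* (0.72, 0.0297) and *Cd48* (0.49, 0.0143), and without WT p974s864 *Cd48* again (0.53, 0.0377). The share of all genes passing in these reduced fits is not given here. With all cultures 38.4% of genes had an unadjusted edgeR p under 0.05 at 24h. In ctrl and 0p5h, members other than *Cd40* and *Cd70* had unadjusted edgeR p-values above 0.05.

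**Figure D4:**
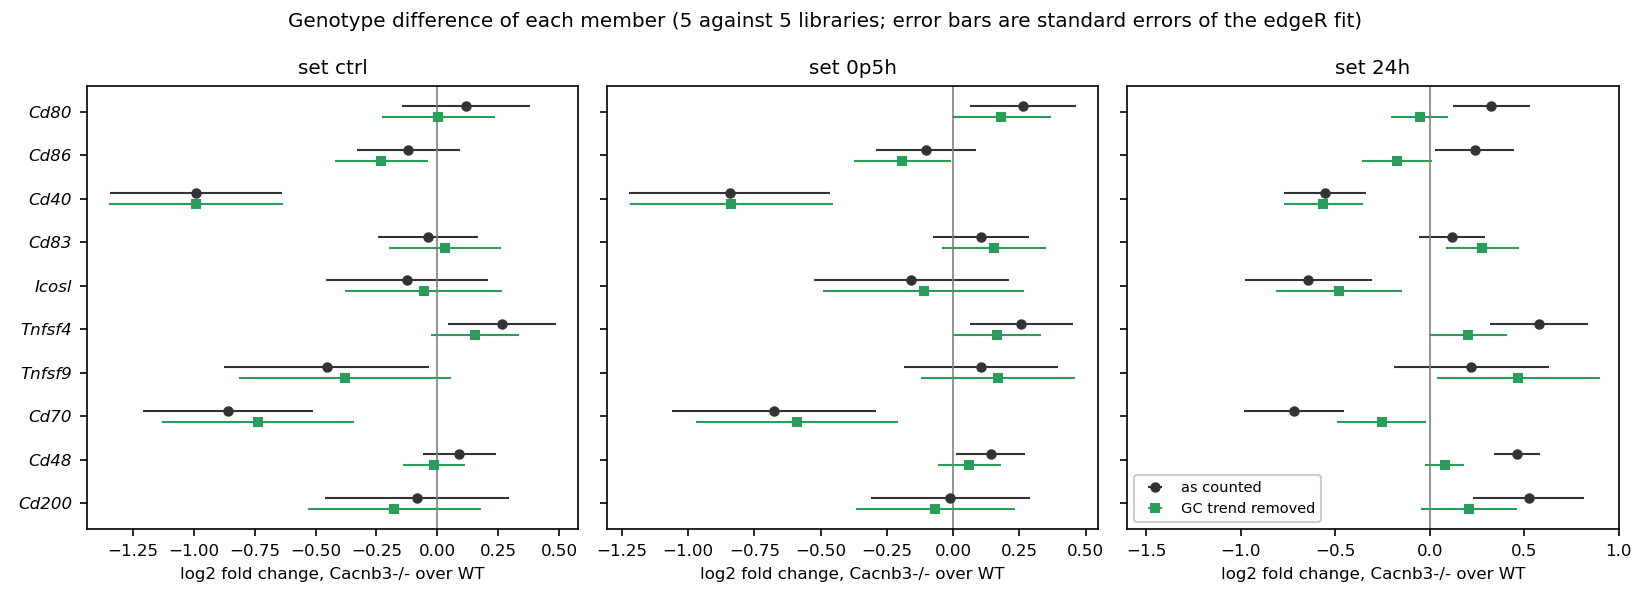
Log2 fold change of *Cacnb3-/-* over WT for each member in ctrl, 0p5h and 24h, as counted (black circles) and after removing the trend with GC content (green squares), with standard errors of the edgeR fit for 5 against 5 libraries. *Cd40* stays below 0 in all sets under both, whereas *Cd48* at 24h moves from 0.46 to 0.08.

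Whether the change between sets depended on genotype was tested as an interaction. No member and 0% of genes were called by DESeq2 or by edgeR without the block, and edgeR without the block gave 0 members an unadjusted p under 0.05 in each of the 3 tests, against 0.223%, 4.86% and 5.88% of genes. With the block 1, 5 and 4 members had an unadjusted p under 0.05 for ctrl to 0p5h, ctrl to 24h and 0p5h to 24h, against 2.32%, 19.5% and 28.4% of genes, and none passed after adjustment. For *Tnfsf9* from ctrl to 0p5h, the gain was larger in *Cacnb3-/-* by 0.47 on the log2 scale (SE 0.17, adjusted p = 1.0, edgeR with the block, which passed 0% of genes). From ctrl to 24h, blocked edgeR gave *Cd200* 0.64, SE 0.21, adjusted p = 0.233, and *Tnfsf9* 0.60, SE 0.20, adjusted p = 0.233, both more positive in *Cacnb3-/-*, where 0.118% of genes passed. *Cd48* (0.38, SE 0.13, adjusted p = 0.233) and *Cd86* (0.34, SE 0.14, adjusted p = 0.235) had the same sign in this fit. *Icosl* had the opposite sign (-0.57, SE 0.20, adjusted p = 0.233). From 0p5h to 24h, DESeq2 with the block passed *Cd200* (0.53, adjusted p = 0.0347) among 9.64% of genes and, at the threshold itself, *Icosl* (-0.57, adjusted p = 0.05), where blocked edgeR gave 0.108 and 0.108 and passed 0.00745% of genes. The passing of *Tnfsf4* in WT and not in *Cacnb3-/-* is therefore not a shown difference between genotypes.

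Most counter-receptors of the members are known mainly from lymphocytes, while the receptor for CD200 is one of myeloid cells. Over all 30 libraries *Cd40lg* had 10 reads, *Cd27* 52 and *Ctla4* 112, and 6 of the 10 listed genes entered the test. *Tnfrsf9*, the receptor of the *Tnfsf9* product, ranged from 434 to 2587 CPM, *Cd200r1* from 17.3 to 104.7 CPM, *Cd244a* from 7.61 to 38.6 CPM, *Icos* from 9.76 to 34.1 CPM and *Tnfrsf4* from 6.42 to 33 CPM. In the blocked edgeR fit of 0p5h against ctrl, *Icos* rose (0.32, adjusted p = 0.0156) and *Tnfrsf4*, the receptor for OX40 ligand, fell (-0.28, adjusted p = 0.0268) in WT, and none passed in *Cacnb3-/-*. The list medians were -0.05 and 0.08 on the log2 scale, against 0.01 and -0.01 over all genes tested, of which 5.96% and 2.35% passed. From 0p5h to 24h, *Tnfrsf9* fell in WT (-0.42, adjusted p = 0.0163, edgeR with the block) and in *Cacnb3-/-* (-0.47, adjusted p = 0.0130). *Cd200r1*, the receptor for CD200, fell in WT (-0.49, adjusted p = 0.00496, the same fit). Over this interval 11.3% of all genes passed in WT and 28.6% in *Cacnb3-/-*.

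Other ligands and receptors listed with costimulation, not all of the members' own families, moved in part with the members. Of 15 tested, 4 rose and 0 fell between ctrl and 0p5h in WT by the blocked edgeR fit, namely *Tnfsf15* (0.65, adjusted p = 0.0208), *Pvr*, a ligand of CD226 and TIGIT (0.64, adjusted p = 0.000155), *Cd274*, which encodes PD-L1 (0.25, adjusted p = 0.0120), and *Cd24a* (0.17, adjusted p = 0.0266). The list median was 0.04 against 0.01 over all genes tested, of which 5.96% passed, and that of the 10 members was 0.16. In *Cacnb3-/-*, *Pvr* (0.70, adjusted p = 0.00200) and *Cd24a* (0.32, adjusted p = 0.0363) rose and none fell, where 2.35% of all genes passed. From 0p5h to 24h, 6 of 15 fell in WT and 4 of 15 in *Cacnb3-/-* and none rose, where 11.3% and 28.6% of all genes passed in either direction, so that the *Cacnb3-/-* share was no higher than that of genes in general. Among them was *Tnfsf15*, which fell by more than 2-fold in WT (-1.27, adjusted p = 0.0172) and in *Cacnb3-/-* (-1.07, adjusted p = 0.00371, both edgeR with the block).

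Of the 15 CD40 and TNF receptor signalling genes, *Tnfaip3*, which encodes the NF-kB inhibitor A20, rose at 0p5h in WT (0.70, adjusted p = 0.000177) and in *Cacnb3-/-* (0.82, adjusted p = 0.00134) and fell from 0p5h to 24h in WT (-0.96, adjusted p = 0.000209) and *Cacnb3-/-* (-0.97, adjusted p = 0.000118), all in edgeR with the block. From 0p5h to 24h, 4 genes of the list rose (*Traf1*, *Traf2*, *Rela* and *Relb*) and 3 fell (*Tnfaip3*, *Rel* and *Nfkb1*) in WT, and 2 rose (*Birc2* and *Birc3*) and 3 fell (*Tnfaip3*, *Nfkb1* and *Map3k14*) in *Cacnb3-/-*. Of all genes tested, 11.3% passed in WT and 28.6% in *Cacnb3-/-*, so that the *Cacnb3-/-* count was near that of genes in general. One further gene of the list passed at 0p5h, *Traf2*, a TNF receptor adaptor that fell in WT (-0.22, adjusted p = 0.0263). The list median at 0p5h was -0.00196 in WT and -0.000115 in *Cacnb3-/-*, on the log2 scale. Between ctrl and 0p5h 5.96% of all genes passed in WT and 2.35% in *Cacnb3-/-*. Among 14 mature dendritic cell genes, *Il12b*, a subunit of interleukin-12, rose by at least 2-fold at 0p5h in WT (1.02, adjusted p = 0.00327) and *Cacnb3-/-* (1.4, adjusted p = 0.0100) and fell by 24h (-1.40, adjusted p = 6.12e-05, in WT, and -1.25, adjusted p = 3.92e-05, in *Cacnb3-/-*). At 0p5h *Ccr7*, the lymph node homing receptor, rose in WT (0.23, adjusted p = 0.0203, edgeR with the block), as did *Samsn1* and *Il15*. The list median at 0p5h was 0.11 in WT and 0.12 in *Cacnb3-/-*. From 0p5h to 24h, *Fscn1* and *Cacnb3* rose and *Ccl17* fell beside *Il12b* in WT, and 5 genes (*Socs2*, *Tmem123*, *Samsn1*, *Il15* and *Marcksl1*) rose and *Ciita* fell beside *Il12b* in *Cacnb3-/-*. These counts, too, stand beside 11.3% and 28.6% of all genes.

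Across the 30 libraries, which share cultures and sets, the genes most like each member were found by the Pearson correlation of log2 CPM over 9614 genes of at least 5 CPM on average. *Tnfsf9* was most like *Smim3* (r = 0.93), *Pgf* (0.91) and *Auh* (0.91). *Cd80* was most like *Tsc22d1* (0.85), *Tnfsf4* (0.83) and *Atp5mk* (0.83), so that another member stood among its 3 closest genes. *Tnfsf4* in turn was most like *Tspan13* (0.89), *Ubxn7* (0.89) and *Hnrnph2* (0.86). *Cd40* was closest to *Gbp2b* (0.94), *Nrde2* (0.94) and *Il2ra* (0.93), and *Cd70* to *Irf8* (0.91), *Sik3* (0.91) and *Pef1* (0.90). *Cd200* was closest to *C9orf72* (0.95), *Tbc1d4* (0.93) and *Ubfd1* (0.93), *Cd86* to *Crebl2* (0.91), and *Icosl* to *Sspo* (0.91). Between members the highest values were those of *Cd83* with *Cd200* (0.85) and of *Cd80* with *Tnfsf4* (0.83), and the lowest were those of *Icosl* with *Tnfsf9* (-0.79) and with *Cd86* (-0.75). Genes are not independent replicates, and these values are descriptions.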

How the data were processed

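RNA-seq was done on 30 BMDC libraries. Per the file headers the authors counted reads per gene with featureCounts 1.5.1 over Ensembl 79 (GRCm38) exons, and the deposited values are raw counts. The submitters' processing notes name STAR 2.4, mm10 and DESeq2. The study's methods name another build, instrument and a stranded paired-end kit, whereas the header gives read-1 alignments and no strand or multi-mapping option, so antisense and paralogous reads may be shared. Sets follow library names. Symbols were found for 38984 of 43629 gene IDs.

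Genes were filtered with filterByExpr, scaled by TMM and tested with edgeR 4.0.16 (glmQLFTest, R 4.3.3) using the libraries of each comparison, with Benjamini-Hochberg adjustment over all genes tested. A call needed an adjusted p under 0.05 and at least 2-fold. Alternatives were DESeq2 1.42.0, other size factors, no filter, all libraries in 1 fit, lane or sex as covariate, a GC trend, leaving out each culture, and the culture number as a block. The scripts were tested on simulated data. No pair of libraries of the same group agreed within sampling noise (60 pairs, chi-square per degree of freedom from 23.7). Pairs across groups were not checked.

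The culture number was used as a block where the correlation of same-numbered libraries' deviations from group means exceeded 0.1 in all 5 pairs, as in 5 of 6 set comparisons, with lowest values of 0.317 to 0.600. For *Cacnb3-/-* 24h against ctrl (4 of 5 pairs), fits with and without it are given. The pairing comes from the data and the shared number, not from a label naming an animal. The members and lists were chosen with earlier results of these data known. Named were all members, list genes called in a comparison, the 3 genes most like a member, *Cacnb3* and markers. List genes that passed only the blocked test, and scarce or abundant counter-receptors, were named after their values were seen.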

Additional observations from a re-analysis of the deposited data

Results flagged for a closer look

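In 2 of 60 groups of 5 libraries (10 members in 6 groups), 1 library stood further from the rest than Dixon's 95% limit of 0.71 allows, where chance flags about 1 group in 20. Both were *Cacnb3-/-* 0p5h libraries of different cultures. *Tnfsf4* in p974s852 reached 395 CPM against a group median of 242 CPM, with a gap of 0.722 of the group's range, and without that culture the blocked edgeR change from ctrl was 0.30 on the log2 scale (adjusted p = 0.248) against 0.31 with it. *Cd70* in p974s853 reached 12.2 CPM against a median of 5.57 CPM, with a gap of 0.833 of the range, and without that culture the blocked edgeR change was 0.17 (adjusted p = 0.663) against 0.36 with it.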

How the results depend on the processing

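The main test called 0 of 10 members in all 13 comparisons. In fits that blocked on the culture number (replicate block), with no fold minimum, the counts were 5 for WT 0p5h against ctrl, 1 for WT 24h against ctrl, 6 for WT 24h against 0p5h, 3 for *Cacnb3-/-* 0p5h against ctrl, 2 for *Cacnb3-/-* 24h against ctrl and 3 for *Cacnb3-/-* 24h against 0p5h. With the block and the 2-fold minimum, 1 member (*Tnfsf9*) was called for *Cacnb3-/-* 0p5h against ctrl, also 1 with the GC trend removed and 1 with DESeq2, and DESeq2 with the block called 1 (*Tnfsf9*) for WT 24h against 0p5h. The block changed no other call at 2-fold. For *Cacnb3-/-* 24h against ctrl, 4 of 5 same-numbered pairs correlated above 0.1 (lowest 0.0746, culture p974s843), while these cultures were paired in the other *Cacnb3-/-* comparisons, and the block's 2 members were *Cd40* (0.60, adjusted p = 0.0251) and *Cd200* (0.76, 0.0131) in edgeR, where 1063 of 12452 genes passed.

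Leaving out 1 culture gave 0 to 1 calls for WT 24h against 0p5h (1 with the block without p974s846 or p974s855), 0 to 1 for *Cacnb3-/-* 0p5h against ctrl (0 in each fit without the block, 1 in each with it) and 0 to 1 for *Cacnb3-/-* against WT in ctrl, the last being *Cd40* without WT p974s864. The shares of all genes called in these reduced fits are not given here. DESeq2 without a fold minimum gave 2 members for *Cacnb3-/-* against WT at 24h. For the 29 differences of single genes that passed the blocked edgeR fit or had an unadjusted p under 0.05, the 489 values under alternatives kept their direction and 12 gained a call. Since the main test called none, no call at 2-fold could be lost. At 24h the *Cd80* and *Cd86* genotype differences, outside the 29, changed sign with the GC trend removed. The cause of these differences was not tested. Limits are 5 cultures a group, a depth of 8237393 reads in the shallowest library, under which *Cd70* has few reads, a genotype confounded with substrain, and the conflict over the treatment of the ctrl and 0p5h sets. A model with lane was not fitted for summed libraries, since a culture may span lanes.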
